A study of Mus musculus with 21 samples.

Results

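The 5 genes described here are Snai1, Snai2, Snai3, Zeb1 and Zeb2, the Snail and Zeb factors of epithelial-mesenchymal transition. They are the named members of both families, were looked up by gene symbol, and were all found among the 48321 symbols of each count table. Their transcripts were followed in 21 samples of embryoid bodies, which are aggregates of differentiating embryonic stem cells. Levels are RNA-seq counts scaled to library size (CPM).

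In an epithelial-mesenchymal transition, cells that hold together as a sheet lose their junctions and apical polarity and become motile. Snail factors are zinc-finger repressors that bind E-box sequences in the promoters of junction genes such as Cdh1, which encodes E-cadherin. Zeb factors carry zinc-finger clusters at both ends of the protein, bind paired E-box-like sites, and repress many of the same epithelial genes. TWIST1 is a basic helix-loop-helix factor of mesoderm and cranial mesenchyme that also drives such transitions. It binds E-boxes as a dimer, either with itself or with an E-protein such as TCF3, TCF4 or TCF12. In the early mouse embryo Snai1 is required for gastrulating cells to leave the epiblast, while Snai2 and Zeb2 are best known from the neural crest.

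All samples derived from A2loxCre mouse embryonic stem cells of strain C57BL/6, differentiated for 3 days. Each of the 7 groups held 3 samples. The parental group carried no TWIST1 construct and received doxycycline. Every other line had a coding sequence stably integrated behind a doxycycline-inducible promoter: the TWIST1 monomer, the TWIST1 homodimer, or a dimer of TWIST1 with TCF3, TCF4 or TCF12. The monomer line was sampled without doxycycline (uninduced monomer) and with it (induced monomer), and the 4 dimer lines with it. Protein expression was induced for 16 h before collection. No uninduced sample of a dimer line and no parental sample without doxycycline is among the 21, so a dimer line can be compared only with another line. The labels do not say whether the 3 samples of a group came from separate cultures, so the p-values measure only the spread between these samples.

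The Zeb genes sit in a mutual negative loop with the miR-200 family, the microRNAs that hold epithelial cells in their state. The mature sequences are shown from RefSeq (build GRCm38.p6) because matches to their seeds are more numerous in the longer Zeb transcripts than in the Snail ones. Capitals mark the seed, bases 2 to 8, and the family falls into 2 groups by seed. Group 1 holds miR-200b, miR-200c and miR-429, and group 2 holds miR-200a and miR-141.
mmu-miR-200b-3p: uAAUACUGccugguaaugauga
mmu-miR-200c-3p: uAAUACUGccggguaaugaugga
mmu-miR-429-3p: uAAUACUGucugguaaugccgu
mmu-miR-200a-3p: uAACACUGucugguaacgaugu
mmu-miR-141-3p: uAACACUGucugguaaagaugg

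The complement of the group 1 seed, CAGTATT, was searched on the transcript strand of the 3′ untranslated region of the longest coding transcript. It occurs 5 times in Zeb1 and 5 times in Zeb2. At least as many are held by 0.0292% of the 20532 genes with an annotated 3′ untranslated region. The complement of the group 2 seed, CAGTGTT, occurs 4 times in each Zeb gene, a number reached by 0.253% of genes. The Snail genes have few matches. Snai1 has 1 match to CAGTATT and 0 to CAGTGTT, Snai2 has 1 of each, and Snai3 has none. A single match is common, since 13.5% of genes hold CAGTATT and 17.4% hold CAGTGTT. These regions differ in length, 2401 bases in Zeb1 and 4941 in Zeb2 against 645 to 1089 in the Snail genes. The shares are over regions of any length, and longer regions can hold more matches, so they do not compare matches per base. A match is a run of letters and not a measured site. The microRNA genes themselves had counts of 0 or 1 in these libraries, which were prepared from mRNA and do not measure mature microRNAs.

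Snai1 and Zeb2 have promoter windows in the RefSeq promoter table. The 250 bases before the annotated start of Snai1 (GRCm38.p6, chr2:167537945-167538194, plus strand) are shown because Snai1 reached the highest level of any member. Capitals mark the only E-box found, any match to CANNTG on either strand.
Snai1 promoter: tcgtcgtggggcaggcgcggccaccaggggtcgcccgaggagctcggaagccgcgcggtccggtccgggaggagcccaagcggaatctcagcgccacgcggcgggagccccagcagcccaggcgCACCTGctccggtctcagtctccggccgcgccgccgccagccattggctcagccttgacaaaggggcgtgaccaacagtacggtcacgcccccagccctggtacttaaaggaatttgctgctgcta
The match begins at position -126 relative to the start. Its letters, CACCTG, are the reverse complement of CAGGTG, the E-box form bound by Snail and Zeb factors. Of 32851 promoter windows of the same length, 66.2% hold at least 1 CANNTG and 17.2% hold CAGGTG or CACCTG. None of the 4 Zeb2 windows holds a CANNTG, which says only that these letters are not within those bases.

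The genes lie on 4 chromosomes of the GRCm38 build (GENCODE M21 models). Snai1 spans chr2:167538195-167542814 on the plus strand, and Zeb2 spans chr2:44983632-45117395 on the minus strand. Snai2 spans chr16:14705852-14709385 on the plus strand, Snai3 chr8:122454208-122460733 on the minus strand, and Zeb1 chr18:5591860-5775467 on the plus strand. The longest coding transcripts of the Snail genes are short, 1.62 kb in Snai1, 2.02 kb in Snai2 and 1.63 kb in Snai3. Those of Zeb1 and Zeb2 measure 5.80 and 9.12 kb. Exons of the antisense genes Zeb2os and Gm10125 overlap Zeb2 and Zeb1, and the sources used here do not state whether counting used strand. Those partners had 0 to 10 and 0 to 14 counts per library, against 13 to 407 for Zeb2 and 9 to 175 for Zeb1.

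Total counts ran from 6648842 to 15999693 per sample, and 3 counts, the lowest level taken as detectable, correspond to 0.188 to 0.451 CPM. Such floors cover counting error only. Twist1 itself measured 8.10 ± 0.788 CPM (SD, n = 3) in parental samples and 5.07 ± 0.632 in uninduced monomer samples. It measured 612 ± 31.6 in induced monomer samples, 182 ± 16.6 in homodimer samples and group means of 39.4 to 55.1 in the heterodimer lines. Tcf4 measured 330 ± 22.5 CPM in the TCF4 dimer line against 47.5 ± 7.25 in the parental line. Tcf3 measured 154 ± 4.53 CPM in the libraries labelled TCF3 dimer against 167 ± 5.92 in parental samples. Tcf12 measured 92.9 ± 34.8 in the libraries labelled TCF12 dimer, within the range of the 104 ± 14.7 and 90.3 ± 4.75 of the TCF3 and TCF4 groups. The count of the partner gene thus stood out in the TCF4 line and not in the libraries labelled TCF3 dimer or TCF12 dimer, and every direction given below for those libraries rests on their labels. They are called TCF3 and TCF12 libraries. The stem cell and epiblast gene Pou5f1 had group means of 419 to 619 CPM.

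Sample 1 of the libraries labelled TCF12 dimer stands apart, and in a direction that touches these genes. Its log2 deviation from the mean of the other libraries of its group fell with transcript length. Spearman's rho was -0.738 across 12197 genes, which are not independent. Outside this group the values lay between -0.347 and 0.409. Transcripts under 1 kb had a median log2 deviation of 1.14 and those over 8 kb of -0.95. The short Snail genes were shifted up in this library, Snai1 by 0.73, Snai2 by 0.40 and Snai3 by 0.30, while the long Zeb1 and Zeb2 deviated by -0.40 and -0.98. Fold changes of the members and counts over gene lists are therefore given with and without that library. Sample 1 of the uninduced monomer line also differed from its companions more than its counts allow, with a chi-square per degree of freedom of 35.5 and 39.7 against 2.56 between the other two.

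**Figure D1:**
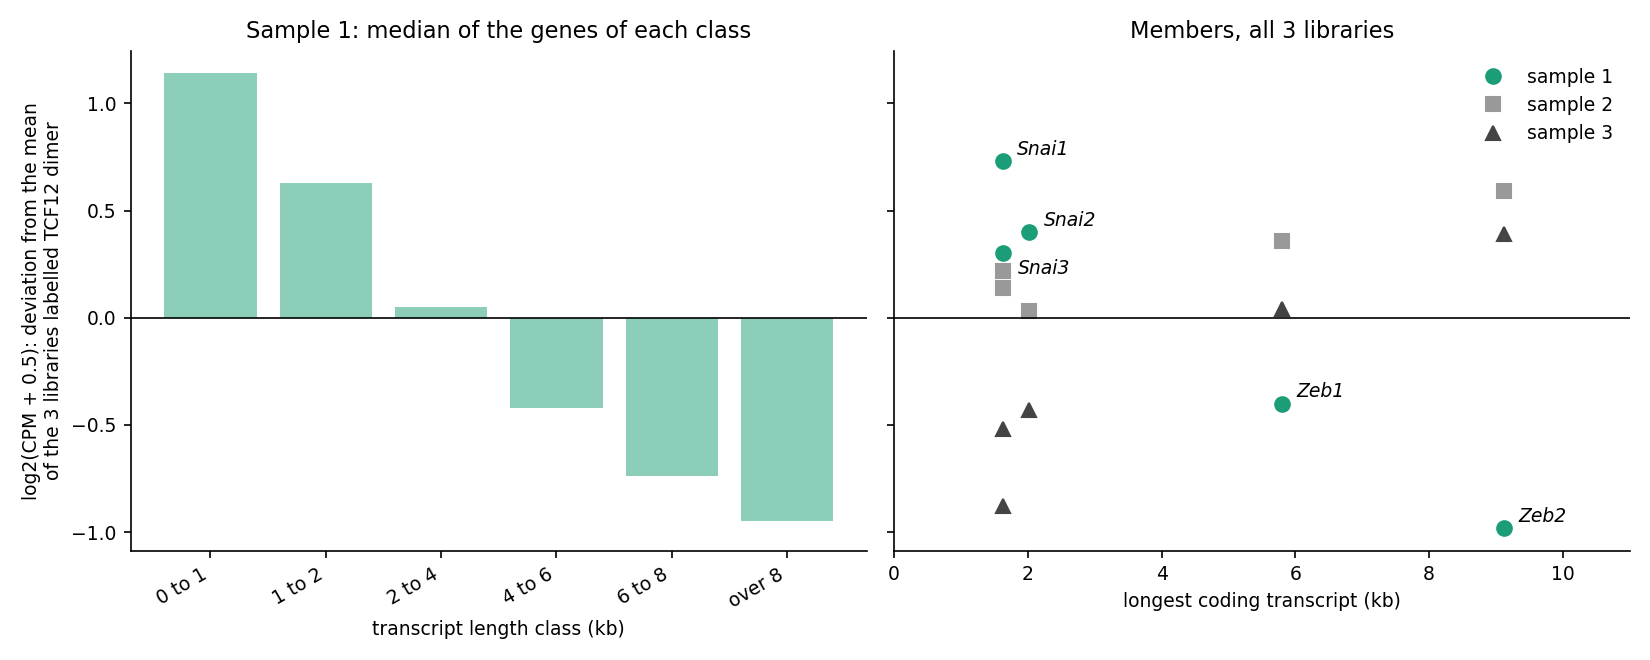
Deviation of log2(CPM + 0.5) in a TCF12 library from the mean of the other libraries of that group. Left, the median over genes in classes of transcript length (kb) for sample 1. Right, the 5 members in all 3 libraries against the length of their longest coding transcript (kb). The printed axis label names the mean of all 3 libraries, but each library was left out of its own reference. In sample 1 the short Snail transcripts lie above 0 and Zeb1 and Zeb2 lie below it, at -0.40 and -0.98.

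Snai1, the Snail gene of gastrulation, was low in every group without an E-protein dimer and high in all 3 with one. Parental samples gave 4.79, 6.39 and 5.54 CPM, uninduced monomer samples 6.50, 5.74 and 3.41, induced monomer samples 4.66, 5.39 and 4.83, and homodimer samples 4.96, 4.21 and 4.32. The TCF3 libraries gave 60.5, 34.1 and 41.4 CPM, the TCF4 libraries 30.2, 25.5 and 24.8, and the TCF12 libraries 78.6, 59.7 and 37.1. All 9 heterodimer samples were thus above all 12 others, and the 4 low groups overlapped one another. Full separation from parental was not rare with 3 samples a group. Of all genes tested, 28.8% had every TCF3 sample above every parental one, 21.4% every TCF4 and 16.9% every TCF12 sample. These shares also stand beside the other members below. All 9 heterodimer samples lay above the homodimer samples in 5.07% of genes. Against the parental line the fold difference of Snai1 was 8.13 in TCF3, 4.81 in TCF4 and 10.4 in TCF12 libraries, or log2 fold changes of 3.02 ± 0.27 (SE, n = 3 and 3), 2.26 ± 0.27 and 3.38 ± 0.27. Their adjusted p-values in edgeR's quasi-likelihood test were 7.3e-08, 7.6e-06 and 2.7e-08. Without sample 1 the TCF12 value was 3.11 ± 0.22 (adjusted p 8.4e-13), lower but still called.

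Snai2, the Snail gene of the migrating neural crest, was the scarcest member and close to its floor in parental samples. These held 3, 0 and 2 counts, or 0.327, 0 and 0.202 CPM, where a count of 0 allows up to 0.3305 CPM. Uninduced monomer samples gave 1.30, 0.418 and 1.17 CPM, induced monomer samples 0.909, 0.899 and 1.07, and homodimer samples 0.754, 0.717 and 1.34. All 9 lay above the parental samples by a handful of reads each, 4 to 13 counts. Of all genes tested, 24.1, 24.2 and 17.9% had every sample of these groups above parental, in the same order. The TCF3 libraries gave 10.7, 5.38 and 6.90 CPM, the TCF4 libraries 2.91, 3.08 and 3.10, and the TCF12 libraries 6.60, 5.49 and 4.35. Every heterodimer sample lay above every sample of the other 4 groups. Snai2 passed the filter on low counts through 13 of 21 samples, all 9 heterodimer samples and 4 of the other 12, none of them parental. A gene this scarce in parental samples could be tested only if other lines had more of it, so its differences from parental were partly fixed by the filter. Counting error is the main limit. The pooled 275 counts in TCF3 libraries against 5 in parental ones give a ratio of 44.0 with an exact 95% interval of 18.6 to 137. The ratio was 17.3 (7.22 to 54.2) for TCF4, 29.2 (12.3 to 90.8) for TCF12, 27.9 (11.6 to 87.6) without TCF12 sample 1, and 5.00 (1.87 to 16.8) for the uninduced monomer line.

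Snai3, the least studied Snail gene and best known from muscle and lymphoid cells, varied least between groups. Parental samples gave 4.35, 2.60 and 3.53 CPM, uninduced monomer samples 2.93, 3.03 and 2.34, induced monomer samples 3.30, 2.70 and 3.54, and homodimer samples 3.34, 3.41 and 3.39. The TCF3 libraries gave 1.73, 3.00 and 2.27 CPM, the TCF4 libraries 3.38, 3.50 and 3.46, and the TCF12 libraries 2.83, 2.70 and 1.77. Group means ran from 2.34 to 3.49 CPM, and neighbouring groups in that order overlapped throughout. None of the 15 comparisons passed for Snai3. The TCF3 and TCF12 libraries were nearest to a difference from parental, with log2 fold changes of -0.58 ± 0.22 (adjusted p 0.054) and -0.53 ± 0.22 (adjusted p 0.079). Both passed when sample 1 of TCF12 was left out, at -0.60 ± 0.22 (adjusted p 0.029) and -0.64 ± 0.25 (adjusted p 0.049), and both passed without parental sample 2. The first also passed without TCF3 sample 2 or TCF12 sample 3. Without single libraries the adjusted p-values reached 0.27 and 0.30.

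Zeb1, a repressor of epithelial polarity genes, had group means that climbed from the parental to the TCF3 group. Parental samples gave 1.09, 1.30 and 1.61 CPM and uninduced monomer samples 1.46, 1.88 and 1.76, and these overlapped. Induced monomer samples gave 3.18, 2.36 and 2.36 CPM and homodimer samples 4.10, 3.94 and 4.21, each group clear of the one before. Of all genes tested, 10.9% had every induced monomer sample above the uninduced ones, and 22.5% every homodimer sample above the induced monomer ones. The TCF4 libraries, at 5.81, 5.47 and 3.65 CPM, overlapped the homodimer samples, while the TCF12 libraries gave 7.02, 10.2 and 8.71 and the TCF3 libraries 14.5, 10.1 and 11.6, which overlapped at 1 sample. Zeb1 was higher than parental in all 5 induced lines. The log2 fold change was 0.97 ± 0.28 (adjusted p 0.019) in the induced monomer line, 1.60 ± 0.26 (adjusted p 0.00032) in the homodimer line and 1.87 ± 0.25 (adjusted p 2.5e-05) in the TCF4 line. It reached 2.69 ± 0.23 (adjusted p 8.2e-08) in TCF12 and 3.16 ± 0.23 (adjusted p 4.4e-09) in TCF3 libraries. Without sample 1 the TCF12 value was 2.80 ± 0.24. The induced monomer difference is the least secure of these: its adjusted p was up to 0.096 when 1 of 3 libraries was left out (parental sample 1 or 2, or induced monomer sample 1).

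Zeb2, the Zeb factor of neural crest and neural precursors, moved in both directions. Parental samples gave 7.29, 9.42 and 10.8 CPM, while the uninduced monomer samples gave 2.11, 2.92 and 2.73 and the induced monomer samples 3.98, 3.71 and 4.29. Homodimer samples gave 6.36, 6.99 and 6.88 CPM, just under the parental range. Every sample below every parental one was not rare. It held for 22.7% of all genes tested in uninduced monomer, 21.9% in induced monomer and 18.1% in homodimer samples. The TCF3 libraries gave 33.6, 23.4 and 26.2 CPM, the TCF4 libraries 15.9, 18.3 and 15.2, and the TCF12 libraries 12.6, 26.6 and 24.2, all above parental. The low TCF12 value is that of sample 1. Zeb2 was therefore lower than parental in the monomer line, by -1.79 ± 0.28 on the log2 scale without doxycycline (adjusted p 0.00012) and by -1.20 ± 0.26 with it (adjusted p 0.0023). In the homodimer line the difference of -0.44 ± 0.24 did not pass (adjusted p 0.33), but it did in a fit of those 2 groups alone (adjusted p 0.033). With uninduced monomer samples as the reference, homodimer samples were higher by 1.35 ± 0.29 (adjusted p 0.0018), so the direction for this line depends on the reference. It was higher by 1.59 ± 0.21 in TCF3 (adjusted p 1.1e-05), 0.84 ± 0.21 in TCF4 (adjusted p 0.012) and 1.21 ± 0.21 in TCF12 libraries (adjusted p 0.00035). Without sample 1 the TCF12 value was 1.46 ± 0.14 (adjusted p 6.6e-10), and with that sample in a fit of the 2 groups alone it did not pass (adjusted p 0.078). The TCF4 difference lost its call without parental sample 1 or TCF4 sample 2, with an adjusted p of up to 0.075.

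**Figure D2:**
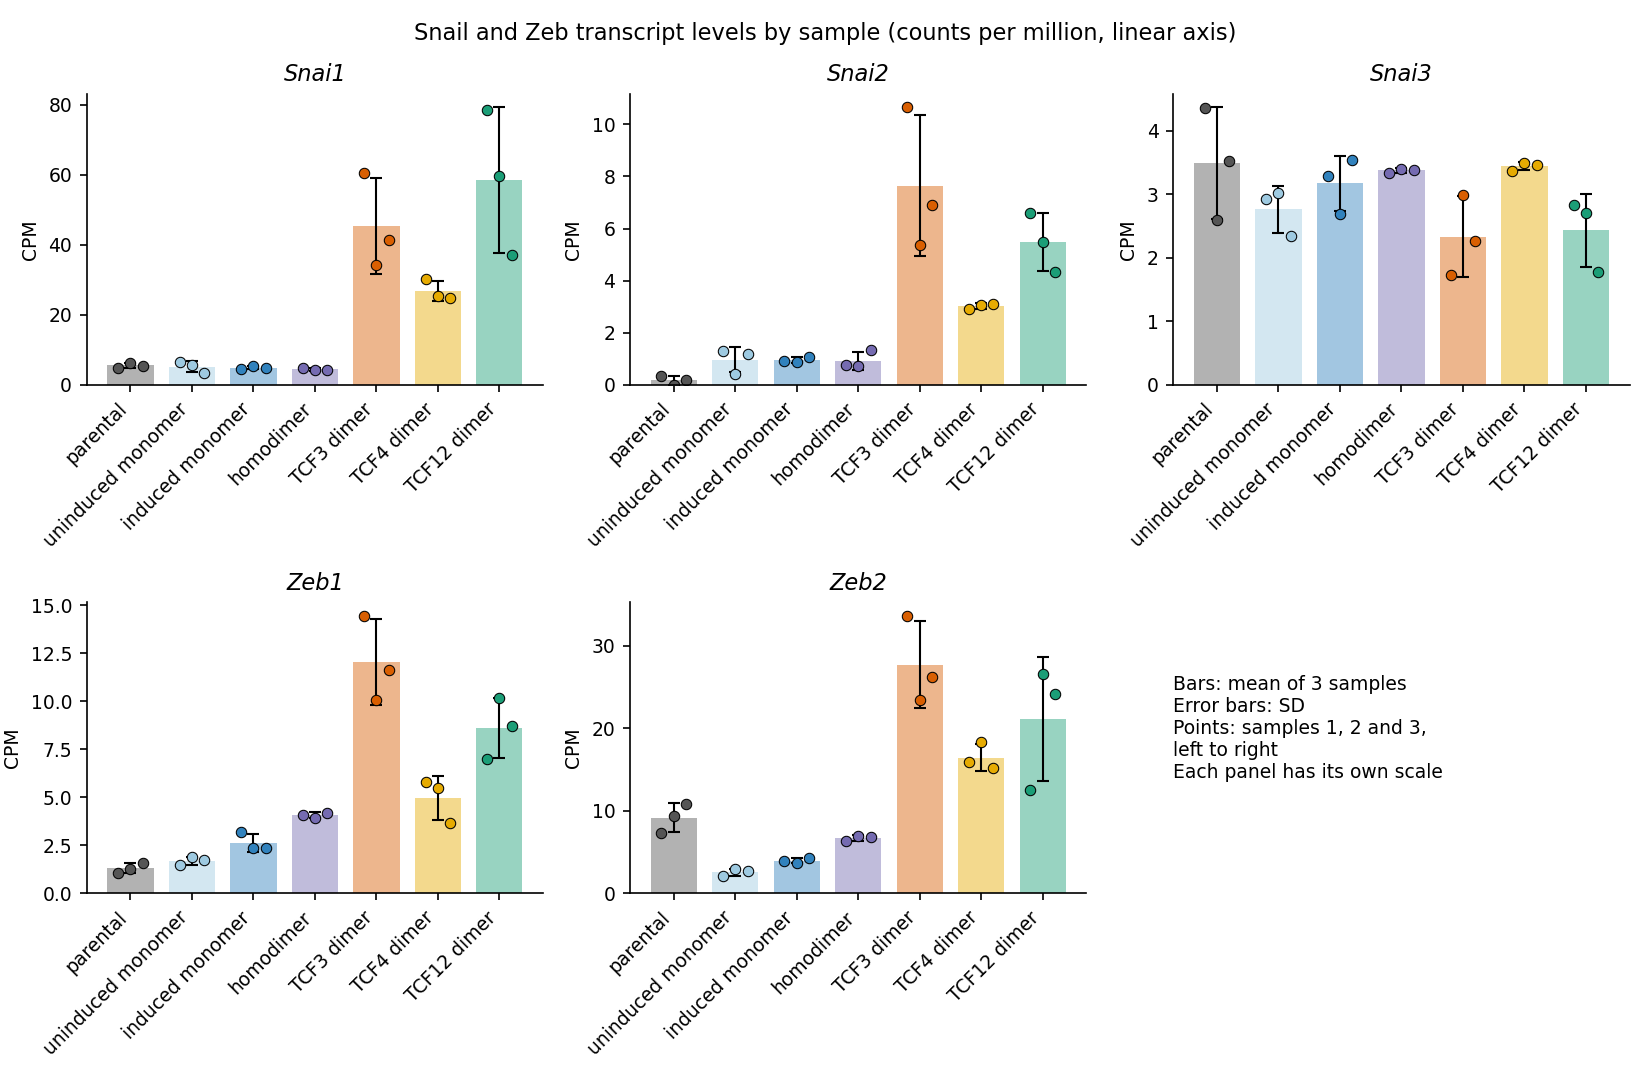
Transcript level (CPM, linear axis, 1 scale per panel) of each member in the 7 groups; bars are means of 3 samples, error bars SD, and points the samples 1 to 3 from left to right. Snai1, Snai2, Zeb1 and Zeb2 stand above parental in all 9 heterodimer samples, Snai3 stays between 1.73 and 4.35 CPM, and Zeb2 in the monomer line lies under the parental samples.

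Levels of different genes were compared per kb of the longest coding transcript, and their order changed between groups below Snai1. In parental samples Snai1 led with 3.44 ± 0.493 CPM per kb (SD, n = 3), followed by Snai3 with 2.15 ± 0.540 and Zeb2 with 1.01 ± 0.193. Zeb1 at 0.230 ± 0.0454 and Snai2 at 0.0871 ± 0.0815 were far lower. In TCF3 libraries Snai1 reached 28.0 ± 8.41, Snai2 3.78 ± 1.34, Zeb2 3.04 ± 0.580 and Zeb1 2.08 ± 0.384 CPM per kb, and Snai3, at 1.43 ± 0.389, had become the lowest. Summed over the 3 Snail genes, the level was 5.31 to 5.67 CPM per kb in the 4 groups without an E-protein and 33.2 ± 9.38 in TCF3, 20.2 ± 1.74 in TCF4 and 40.3 ± 13.7 in TCF12 libraries (41.2 and 26.1 in samples 2 and 3). The 2 Zeb genes together measured 1.23 ± 0.237 CPM per kb in parental, 0.577 ± 0.0833 in uninduced monomer, 1.44 ± 0.0390 in homodimer and 5.11 ± 0.963 in TCF3 samples. Most of the Snail transcript pool was therefore Snai1 in every group, on this scale.

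Against the parental line, which shares its samples among all 6 such comparisons, the number of members called was read beside the share of all 14311 genes tested. In TCF3 libraries 4 of 5 members were higher and 0 lower (16.3% of all genes higher). In TCF4 libraries the count was also 4 higher (7.18% of all genes higher), and in TCF12 libraries 4 higher (15.5% of all genes higher). Snai2 is 1 of those 4 each time. Its log2 fold change was 5.35 ± 0.46 in TCF3, 4.01 ± 0.53 in TCF4 and 4.86 ± 0.49 in TCF12 libraries, and 4.71 ± 0.48 in TCF12 libraries without sample 1. The median log2 fold change of the 5 members was 3.02, 1.87 and 2.69, against 0.01, 0.00 and 0.02 over all genes tested. In the homodimer line 2 members were higher, Snai2 and Zeb1 (4.81% of all genes higher), with a member median of -0.05. In the induced monomer line Snai2 and Zeb1 were higher and Zeb2 lower (10.8% of all genes higher, 9.22% lower), and in the uninduced monomer line Snai2 was higher and Zeb2 lower (10.5% of all genes higher, 9.43% lower). Leaving Snai2 aside, 3 of 4 members were called in each heterodimer line, 1 of 4 in the homodimer and uninduced monomer lines and 2 of 4 in the induced monomer line.

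**Figure D3:**
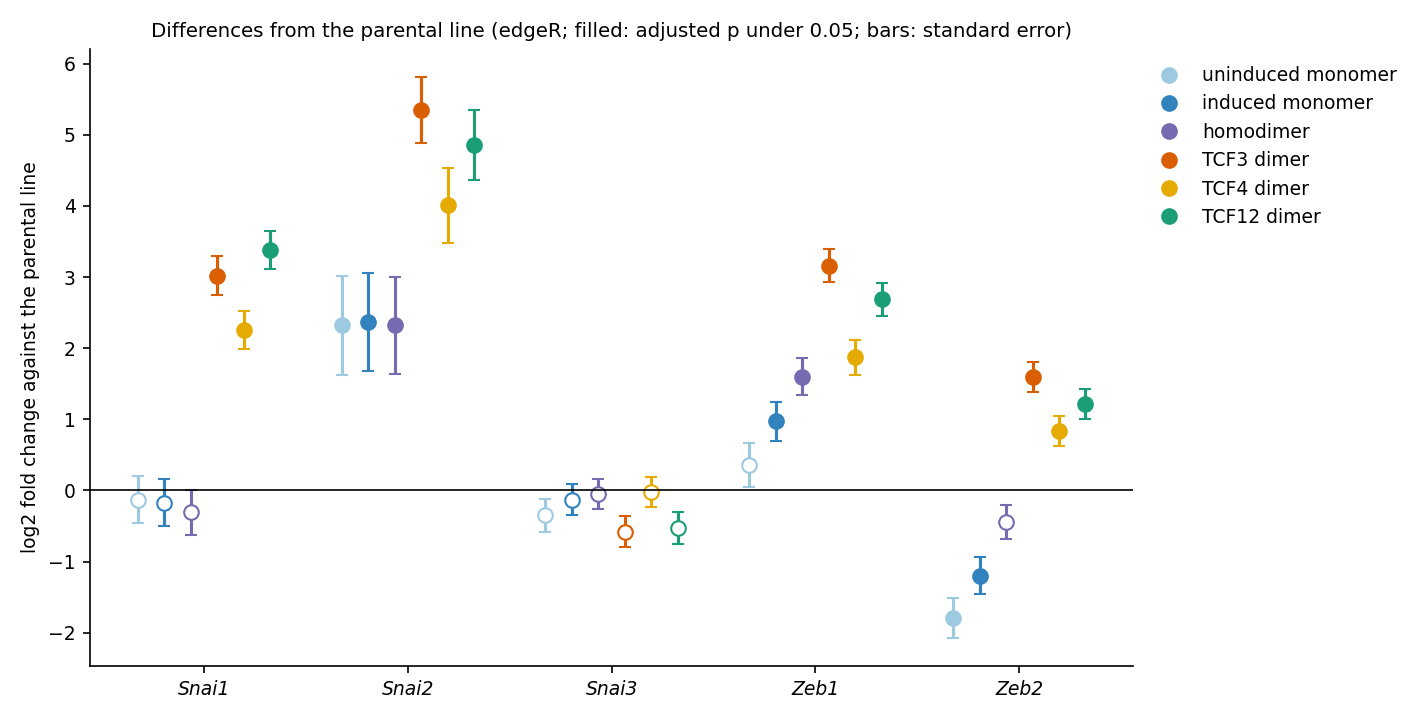
Log2 fold change against the parental line (vertical axis) with its standard error for each member and line, from edgeR; filled points have an adjusted p under 0.05. Snai1 lies near 0 in the 3 lines without an E-protein and between 2.26 and 3.38 in the heterodimer lines, and Zeb2 runs from -1.79 in the uninduced monomer line to 1.59 in TCF3 libraries.

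The small differences of Snai2 in lines without an E-protein partner were the least stable. The log2 fold change against parental was 2.32 ± 0.70 in uninduced monomer (adjusted p 0.024), 2.37 ± 0.69 in induced monomer (adjusted p 0.019) and 2.32 ± 0.68 in homodimer samples (adjusted p 0.038). Each call was lost when 1 of 3 or 4 single libraries was left out, parental sample 2 or 3 among them, with adjusted p-values of up to 0.11, 0.08 and 0.16. The uninduced call was also lost without its own sample 1, the library that stands apart, or its sample 3. The monomer difference was as large without doxycycline as with it.

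Induction itself was tested within the monomer line, the one line sampled in both states. By edgeR 0 of 5 members passed (2.00% of all genes called), with 1 at an unadjusted p under 0.05, and DESeq2 also called 0. That 1 was Zeb1, at 1.70 ± 0.214 CPM without and 2.63 ± 0.474 with doxycycline (log2 fold change 0.60 ± 0.27, adjusted p 0.47). Zeb2 showed a like value, 0.60 ± 0.32 (adjusted p 0.62), with its induced samples above all uninduced ones, as in 10.9% of all genes tested. Snai1 and Snai2 stood at -0.03 ± 0.34 and 0.05 ± 0.49, which leaves changes of moderate size undetectable for Snai2 at this depth. The same groups had 5.07 and 612 CPM of Twist1.

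The dimer lines were next compared with the induced monomer line, which had a higher CPM of Twist1 than any of them. That CPM is a transcript count and says nothing of the TWIST1 protein. In TCF3 libraries 4 of 5 members were higher (12.7% of all genes higher), in TCF4 libraries 4 (14.5% of all genes higher) and in TCF12 libraries 4 (18.1% of all genes higher), Snai3 being the exception each time. Snai2 is 1 of the 4 each time. Its calls were partly fixed by the filter on low counts, passed by all 9 heterodimer samples and 4 of the other 12. Against this reference, where its level was low, Zeb2 gave larger values than against parental: 2.79 ± 0.24 in TCF3, 2.03 ± 0.24 in TCF4 and 2.41 ± 0.24 in TCF12 libraries on the log2 scale. Zeb1 gave 2.19 ± 0.20, 0.90 ± 0.22 and 1.72 ± 0.21. Snai2, which was scarcer in parental than in monomer samples, gave smaller values than against parental, 2.98, 1.64 and 2.48. Without sample 1 the TCF12 values were 3.29 for Snai1, 2.35 for Snai2, 1.85 for Zeb1 and 2.67 for Zeb2, and all 4 stayed called. The homodimer line gave no call by edgeR (0 of 5, 18.5% of all genes called), with 2 members at an unadjusted p under 0.05, and DESeq2 called 1. Those 2 were Zeb1 at 0.63 ± 0.23 (adjusted p 0.068) and Zeb2 at 0.76 ± 0.27 (adjusted p 0.058). Both passed without sample 1 of TCF12, at adjusted p-values of 0.029 and 0.0029. Zeb1 also passed without induced monomer sample 1 or TCF4 sample 3, and Zeb2 without TCF12 sample 2. Snai1 was at 4.50 ± 0.404 CPM in the homodimer against 4.96 ± 0.385 in the induced monomer line, a log2 fold change of -0.15 ± 0.33.

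The 9 heterodimer samples were set against the 3 homodimer samples to ask whether the E-protein partner goes with a different level of these genes. Snai1, Snai2, Zeb1 and Zeb2 were higher and Snai3 was not called (4 of 5 members, 7.99% of all genes higher). Snai2 passed the filter on low counts in all 9 heterodimer samples and in 4 of the other 12. Its call was therefore partly fixed by the filter. Snai1 differed most, with 43.6 against 4.50 CPM and a log2 fold change of 3.20 ± 0.25 (adjusted p 4.7e-08). Snai2 followed at 2.42 ± 0.31 (adjusted p 2.1e-05), Zeb2 at 1.66 ± 0.19 (adjusted p 6.8e-06) and Zeb1 at 0.97 ± 0.17 (adjusted p 0.00038). The Zeb1 samples of the classes overlapped, through TCF4 sample 3. With sample 1 of TCF12 left out the 4 values were 3.11, 2.36, 1.73 and 1.00, and all 4 stayed called. Since the cell mixture of an embryoid body can differ between lines, fewer cells with a transcript and less transcript per cell cannot be told apart in any of these bulk comparisons.

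Among the heterodimer lines, the TCF4 line had the lowest means of Snai1, Snai2, Zeb1 and Zeb2. The TCF3 libraries exceeded it for these 4 members (11.8% of all genes higher): Snai1 by 0.76 ± 0.22 (adjusted p 0.021), Snai2 by 1.33 ± 0.26 (adjusted p 0.0012), Zeb1 by 1.29 ± 0.18 (adjusted p 3.4e-05) and Zeb2 by 0.76 ± 0.19 (adjusted p 0.0092). The Snai1 and Zeb2 differences rested on TCF3 sample 1 and were 0.52 and 0.62 without it, with adjusted p-values of up to 0.14 and 0.059. Leaving out TCF4 sample 2 or 3 also ended the Snai1 call. The fifth member, Snai3, was lower in TCF3 than in TCF4 libraries by a value that did not pass, -0.57 ± 0.21 (adjusted p 0.067). It passed in a fit of the 2 groups alone (adjusted p 0.037) and without TCF12 sample 1 (0.029), TCF3 sample 2 (0.025) or parental sample 2 (0.049). The TCF12 libraries exceeded the TCF4 line for Snai1 by 1.12 ± 0.22 (adjusted p 0.013) and Zeb1 by 0.82 ± 0.18 (adjusted p 0.022), 2 of 5 members (2.07% of all genes higher). Both calls were lost without TCF4 sample 2 or 3, with adjusted p-values of up to 0.088 and 0.14, and in a fit of the 2 groups alone (adjusted p 0.60 and 0.63). The Zeb1 call was also lost with library size only (adjusted p 0.053). Without sample 1 of TCF12 the Snai1 and Zeb1 differences were 0.85 ± 0.16 and 0.95 ± 0.17, both called, and the Zeb2 difference passed as well, at 0.63 ± 0.12 (adjusted p 0.0013) against 0.37 ± 0.20 with it. Snai2, at 0.84 ± 0.27 (adjusted p 0.081), passed without TCF12 sample 3 and when no filter on low counts was used (adjusted p 0.026).

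Between the TCF3 and TCF12 libraries no member passed by edgeR (0 of 5, 18.8% of all genes called), with 1 at an unadjusted p under 0.05, and DESeq2 called 0. The 1 was Zeb1, at 12.04 ± 2.23 against 8.63 ± 1.57 CPM (log2 fold change 0.47 ± 0.17, adjusted p 0.057). Snai1 was at 45.4 ± 13.6 against 58.5 ± 20.8 CPM, well within the spread of either group. Snai2 passed when sample 1 of TCF12 was left out, at 0.63 ± 0.23 (adjusted p 0.044) against 0.49 ± 0.25 with it. Leaving out TCF12 sample 2 brought in Zeb1 (0.64) and Zeb2 (0.61), and leaving out TCF12 sample 3 brought in Snai1 (-0.60). Zeb1 also passed without TCF3 sample 2 or TCF4 sample 3. The spread within the TCF3 group had a pattern of its own: samples ranked 1, 3, 2 from high to low for 4 of 5 members, an order found in 20.2% of the genes tested, so many other genes share it.

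Snai1, Snai2, Zeb1 and Zeb2 varied together across the 21 samples, and Snai3 did not. On the log2(CPM + 0.5) scale Pearson's r was 0.896 between Snai1 and Snai2, 0.907 between Snai2 and Zeb1 and 0.847 between Snai1 and Zeb2. It was lowest between Snai2 and Zeb2 (0.715), the pair that parted in the monomer line. Values with Snai3 ran from -0.517 to -0.355. These coefficients describe 7 groups of 3 samples that share a line and a treatment and are not independent points.

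The genes whose pattern over the 21 samples was most like each member were taken as the first 3 of 14090 by Pearson's r. For Snai1 these were Stom (0.977), Meox2 (0.975) and Hand1 (0.973). Meox2, a homeobox gene of mesoderm, had no count in parental samples and a mean of 2.46 CPM in TCF3 samples, and Hand1, a basic helix-loop-helix gene of lateral mesoderm, 0.357 and 4.47. For Snai2 they were Zhx3 (0.966), Serpinf1 (0.947) and Pnkd (0.946), and Serpinf1, a secreted serpin, went from 1.82 CPM in parental to 54.4 in TCF3 samples. For Zeb1 they were Ttyh2 (0.976), Ets1 (0.972) and Plxna2 (0.969). Ets1, a transcription factor of neural crest and endothelium, and Plxna2, a semaphorin receptor, had means that climbed through the same groups: Plxna2 measured 7.77 CPM in parental, 23.1 in induced monomer, 42.3 in homodimer and 128 in TCF3 samples. For Zeb2 they were Sh3pxd2a (0.974), Cald1 (0.972) and Cdh11 (0.971), a podosome scaffold, an actin-binding protein and a mesenchymal cadherin. Cdh11, like Zeb2, was lower in the monomer line, with 11.1 CPM in parental, 2.99 in uninduced monomer and 54.7 in TCF3 samples. Snai3 had no close companion, its first being Myl6b at 0.800.

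Genes that Snail and Zeb factors are known to repress were read from a list of 26 epithelial genes of junctions, polarity and keratins. Counts over this and the following lists are read beside those over all 14311 genes tested against parental. Of these, 2338 were higher and 1720 lower in TCF3, 1027 and 812 in TCF4 and 2215 and 1651 in TCF12 libraries, and 689 and 576 in the homodimer line. More genes passed in every line without sample 1 of TCF12: of 14423, 3467 were higher and 3233 lower in TCF3, 2092 and 1953 in TCF4 and 2264 and 2103 in TCF12 libraries, and 1529 and 1419 in the homodimer line. Of the epithelial genes, 15 were lower and 2 higher in TCF3 libraries (median log2 fold change -0.44, against 0.01 over all genes), and 15 lower and 1 higher in TCF12 libraries (-0.39, against 0.02). In the TCF4 line 4 were lower and 2 higher (5.67% of all genes lower, 7.18% higher), and in the homodimer line 3 and 3 (4.02% lower, 4.81% higher). The tight-junction gene Cldn3 fell from 6.07 ± 0.731 CPM in parental to 1.59 ± 0.207 in TCF3 and 2.57 ± 1.16 in TCF12 samples (2.13 and 1.69 in samples 2 and 3), and the tight-junction gene Marveld3 from 16.5 ± 0.990 to 6.40 ± 0.724 in TCF3 samples. Other members went the other way, since Cldn4 rose from 23.1 ± 1.28 to 43.5 ± 5.53 CPM and Jup, which encodes plakoglobin, from 97.0 ± 3.92 to 168 ± 7.96 in TCF3 samples. When sample 1 of TCF12 was left out the TCF3 count was 16 lower and 5 higher, the TCF12 count 18 and 1, the TCF4 count 10 and 3 and the homodimer count 4 and 6, beside the larger counts over all genes in that fit.

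Cdh1, the textbook target of both families, was added outside the rule that chose the named genes, with Epcam, Cdh2 and Vim. It stayed abundant everywhere. Its mean was 1018 ± 6.24 CPM in parental, 730 ± 31.8 in TCF3 (log2 fold change -0.48 ± 0.10, adjusted p 0.0013), 809 ± 170 in TCF12 (-0.33 ± 0.10, adjusted p 0.022), and 1055 ± 21.3 in TCF4 samples (0.05 ± 0.10, adjusted p 0.85). The TCF12 difference was smaller without sample 1, at -0.17 ± 0.05 (adjusted p 0.0074). Cdh1 was also lower in the monomer line, at 767 ± 13.4 CPM without doxycycline (adjusted p 0.0067) and 758 ± 19.2 with it (adjusted p 0.0046). In that line Snai1 was not called and Zeb2 was lower in both states, while Snai2 was higher in both and Zeb1 in the induced state. In the TCF4 line Snai1, Snai2, Zeb1 and Zeb2 were higher and Cdh1 was not called. The part of the Snail and Zeb genes in the Cdh1 differences was not tested. Epcam, an epithelial adhesion molecule, was lower in TCF3 samples by -0.48 ± 0.08 (adjusted p 8.8e-05) and was not called in the TCF4 (adjusted p 0.5) or TCF12 samples (adjusted p 0.055). The TCF12 difference passed without sample 1, at -0.30 ± 0.06 (adjusted p 0.00014).

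Of 18 mesenchymal genes listed, 17 could be tested. Against parental 13 were higher and 1 lower in TCF3 (median 1.10, against 0.01 over all genes), 9 and 1 in TCF4 (0.56, against 0.00) and 10 and 0 in TCF12 libraries (0.63, against 0.02), and 2 and 2 in the homodimer line. The shares of all genes higher were 16.3, 7.18, 15.5 and 4.81% in the same order. Cdh11 measured 54.7 ± 11.8 CPM in TCF3, 36.7 ± 2.29 in TCF4 and 52.8 ± 13.4 in TCF12 samples against 11.1 ± 0.728 in parental ones, and 66.5 and 52.2 in TCF12 samples 2 and 3. The collagen gene Col3a1 rose from 4.06 ± 1.66 to 29.5 ± 4.49 CPM in TCF3 samples. Tagln, a smooth-muscle actin-binding protein, fell from 18.3 ± 0.621 to 5.92 ± 0.553 CPM. Vim, the intermediate filament of mesenchyme, went from 96.2 ± 6.74 to 247 ± 43.3 CPM in TCF3 and 276 ± 75.9 in TCF12 samples, whereas Cdh2, N-cadherin, was not called in any heterodimer line against parental. Without sample 1 of TCF12, Vim stayed called in TCF12 samples at 1.27 ± 0.09 (adjusted p 6.2e-13) and Cdh2 passed at 0.25 ± 0.09 (adjusted p 0.03). The list counts were then 13 and 1 in TCF3, 11 and 2 in TCF4 and 11 and 2 in TCF12 libraries, and 5 and 3 in the homodimer line.

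Factors that oppose the transition, among them the Grhl, Ovol and Esrp genes, are 10 genes. In TCF12 libraries 7 were lower and 0 higher (median -0.50, with 11.5% of all genes lower), and the count was the same without sample 1. In TCF3 2 were lower and 2 higher (1720 and 2338 of all 14311 genes), and in TCF4 1 was lower and 0 higher (5.67% of all genes lower), few enough that nothing is read from them. The TCF4 count was 3 lower with DESeq2, and 3 lower and 1 higher without sample 1 of TCF12. Grhl3, a factor of surface ectoderm, fell from 5.42 ± 0.554 to 2.23 ± 0.347 CPM in TCF12 samples (-1.18 on the log2 scale without sample 1, -1.27 with it). Esrp1, a splicing regulator of epithelial cells, fell from 111 ± 3.80 to 78.3 ± 3.48 in TCF3 samples, where the pluripotency and epithelial factor Klf4 rose from 5.72 ± 1.16 to 11.4 ± 1.53. In the uninduced monomer line 6 of the 10 were higher, in the absence of doxycycline (10.5% of all genes higher). Without sample 1 of that line the count was 4. In the homodimer line edgeR called 0 of the 10 (4.81% of all genes higher, 4.02% lower). Of the 10, 2 had an unadjusted p under 0.05, and DESeq2 called 0. Without sample 1 of TCF12 the homodimer count was 1 higher and 0 lower (10.6% of all genes higher, 9.84% lower).

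Other transcription factors of such transitions gave 11 testable genes of 15. The TCF3 and TCF12 libraries each gave 4 higher and 3 lower, the TCF4 line 5 higher and 3 lower. Beside these stand 16.3, 15.5 and 7.18% of all genes higher in TCF3, TCF12 and TCF4 libraries. When sample 1 of TCF12 was left out they were 5 and 4 in TCF3, 6 and 3 in TCF12 and 6 and 4 in TCF4 libraries. The list holds Tcf4 and Tcf3, and Tcf4 is part of the construct of the TCF4 line. Sox9, a neural crest and cartilage factor, rose from 1.38 ± 0.127 CPM in parental to 15.3 ± 3.59 in TCF3, 7.08 ± 1.08 in TCF4 and 12.1 ± 0.699 in TCF12 samples (12.9 and 11.5 in samples 2 and 3). In contrast to Snai1, it was also higher in the homodimer line, at 9.32 ± 1.96 CPM (adjusted p 8.3e-07), and rose on induction of the monomer from 0.601 ± 0.123 to 4.17 ± 1.41 (adjusted p 0.00015). Gsc, an organizer gene, fell from 6.15 ± 1.57 to 1.02 ± 0.508 CPM in TCF3 samples and to 0.264 ± 0.0465 in homodimer samples. Foxc1, a forkhead gene of mesoderm and crest, rose from 0.282 ± 0.0578 to 3.22 ± 0.812 in TCF3 samples.

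Among 24 testable genes of the signals that induce Snail and Zeb genes (TGF-beta, BMP, FGF, WNT and Notch), 11 were higher and 4 lower in TCF3, 7 and 6 in TCF4 and 9 and 4 in TCF12 libraries. Over all genes 16.3, 7.18 and 15.5% were higher in the same order. The ligand gene Bmp7 rose from 3.56 ± 0.450 CPM in parental to 39.8 ± 7.56 in TCF3 samples. It measured 19.5 ± 0.808 in TCF4 and 32.9 ± 9.56 in TCF12 samples. Smad6, an inhibitor and target of BMP signalling, rose from 2.20 ± 0.551 to 10.0 ± 3.83 in TCF3, 4.98 ± 1.01 in TCF4 and 10.9 ± 3.19 in TCF12 samples. Without sample 1, TCF12 samples gave 33.3 and 23.2 CPM of Bmp7 and 11.1 and 7.58 of Smad6, and both stayed called. The primitive streak ligands fell in every TWIST1 line: Fgf8 went from 25.4 ± 2.58 CPM to 0.706 ± 0.244 in TCF3 and 1.79 ± 0.0428 in homodimer samples, and Wnt3 from 16.2 ± 0.708 to 1.08 ± 0.443 and 2.28 ± 0.667. Without sample 1 of TCF12 25 of these genes could be tested, and the TCF3 count was 13 higher and 5 lower, the TCF4 count 14 and 6 and the TCF12 count 14 and 4. In that fit the genes called in the TCF4 line rose from 1839 to 4045. The part of these signals in the Snail and Zeb differences was not tested.

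Corepressors and turnover factors of Snail and Zeb proteins gave 3 higher and 5 lower of 24 in TCF3, 2 and 1 in TCF4 and 4 and 4 in TCF12 libraries, with medians between -0.04 and 0.03. Over all genes 2338 were higher and 1720 lower of 14311 in TCF3, 1027 and 812 in TCF4 and 2215 and 1651 in TCF12 libraries, so nothing is read from the list's counts. The counts without sample 1 of TCF12 were 5 and 9 in TCF3, 4 and 2 in TCF4 and 5 and 5 in TCF12 libraries, in the fit that called more genes both ways. The LIM protein gene Ajuba, a SNAI1 corepressor, fell from 150 ± 7.56 to 83.7 ± 3.29 CPM in TCF3 samples. Loxl2, a lysyl oxidase that interacts with SNAI1, rose from 11.3 ± 0.992 to 24.7 ± 1.71 there and was also higher in the induced monomer line, at 26.9 ± 2.18. Fbxl14, an F-box protein that targets SNAI1 for degradation, was lower in TCF12 samples, at 58.2 ± 3.01 against 76.2 ± 2.22 CPM (61.4 and 55.4 in samples 2 and 3). These are transcript levels and say nothing of the proteins.

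**Figure D4:**
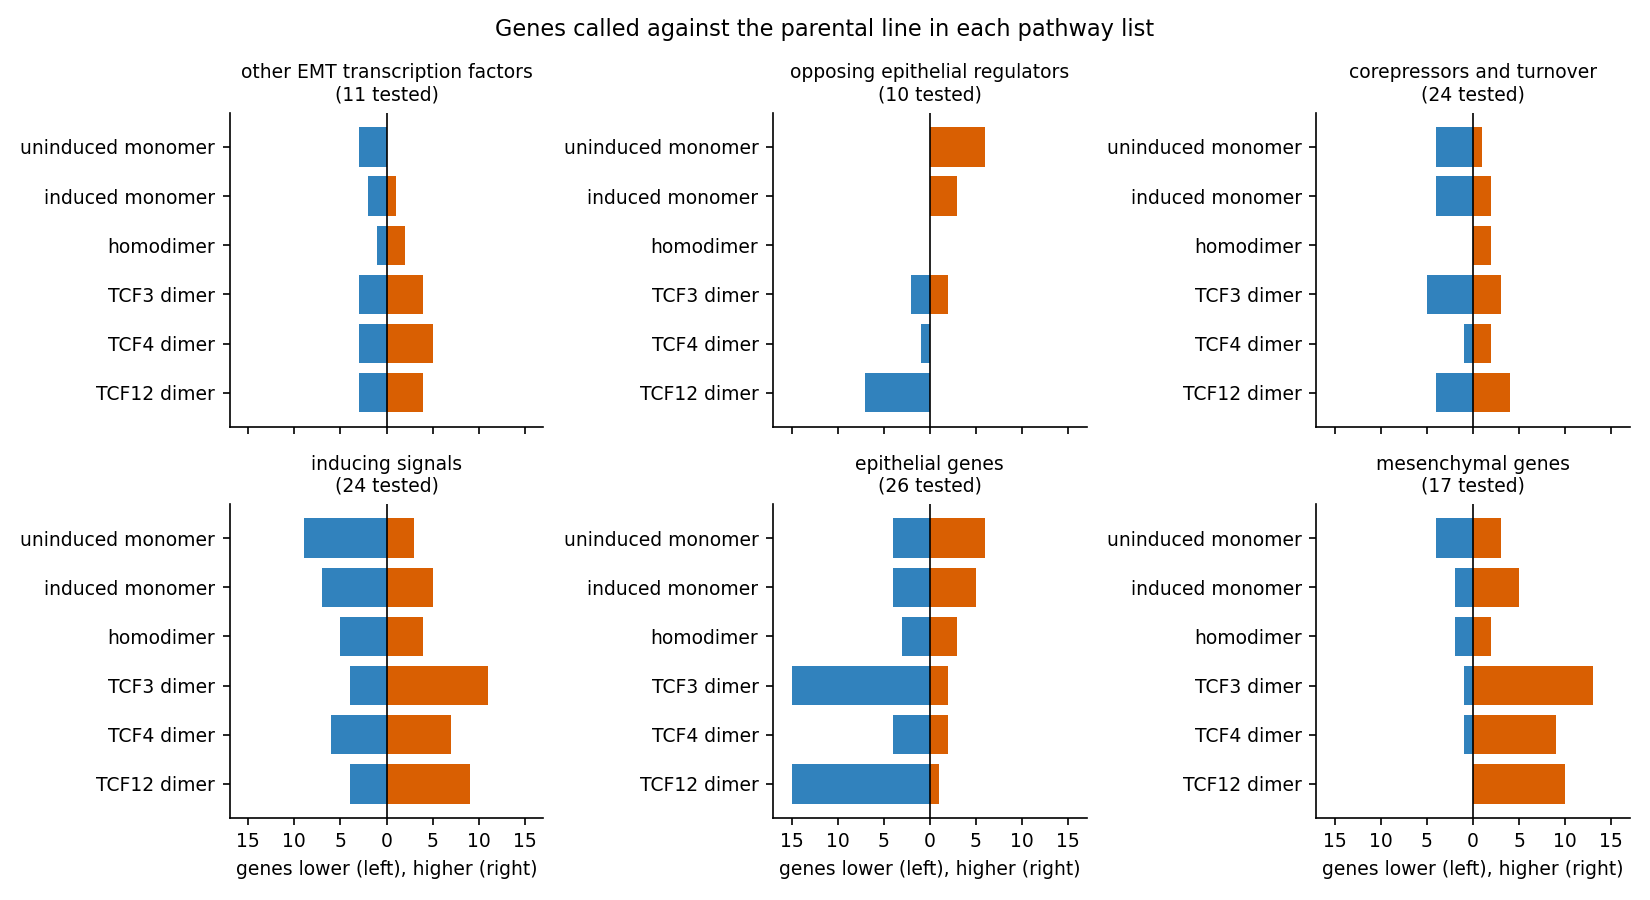
Number of genes called lower (blue, left) or higher (orange, right) against the parental line in 6 pathway lists, for each TWIST1 line. Epithelial genes are mostly lower in TCF3 and TCF12 libraries (15 each) and mesenchymal genes mostly higher in the 3 heterodimer lines (13, 9 and 10).

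Markers of cell types an embryoid body can hold also differed between lines. The 8 markers of lateral and extraembryonic mesoderm summed to 22.4 to 28.2 CPM in parental and 21.3 to 25.2 in homodimer samples, and to 58.5 to 71.2 in TCF3, 35.7 to 43.5 in TCF4 and 59.3 to 63.9 in TCF12 samples. Of these 8, 6 were higher in TCF3, 3 in TCF4 and 7 in TCF12 libraries against parental, and without sample 1 of TCF12 6, 5 and 7. The shares of all genes higher were 16.3, 7.18 and 15.5%, and 24.0, 14.5 and 15.7% without that sample. In the monomer line, where Snai1 was at its parental level, the sum was 34.1 to 44.3 CPM without and 39.0 to 50.7 with doxycycline. In each state 1 of 8 markers was called higher (10.5 and 10.8% of all genes higher). That 1 was Ahnak, a large scaffold protein gene, which made up most of the sum in the parental, monomer, homodimer and TCF4 groups. Ahnak measured 16.7 ± 3.39 CPM in parental, 33.2 ± 5.20 in uninduced and 38.0 ± 5.86 in induced monomer samples. It measured 16.2 ± 1.51 in homodimer, 24.1 ± 2.69 in TCF4 and 32.8 ± 1.46 in TCF3 samples. Hand2 was at 0 in uninduced monomer samples and none of the 8 was at 0 in the other groups. The defining genes Hand2 and Hand1 measured 1.59 ± 0.556 and 4.47 ± 2.42 CPM in TCF3 samples. The part of these markers in the Snail and Zeb differences was not tested.

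The 10 primitive endoderm markers, none at 0, summed to 325 to 333 CPM in parental, 1183 to 1374 in uninduced and 1181 to 1291 in induced monomer samples and 744 to 932 in TCF3 samples, against 208 to 278 in the other lines. The 9 primitive streak markers summed to 197 to 236 CPM in parental and to 18.4 to 48.8 in all TWIST1 lines, the uninduced one included, with Msgn1 at 0 in every group and Mesp1 also at 0 in homodimer samples. Of 9 neural crest markers 6 could be tested, of which 2 were higher and 1 lower in TCF3, 2 and 0 in TCF4 and 4 and 0 in TCF12 libraries against parental (3 and 0 without sample 1 of TCF12). The shares of all genes higher were 16.3, 7.18 and 15.5%. The lower one was Foxd3, a crest and epiblast factor, at 56.1 ± 1.02 CPM in parental and 33.0 ± 3.93 in TCF3 samples. Their sum was 79.4 to 87.0 CPM in parental against 121 to 152 in TCF3, 119 to 130 in TCF4 and 139 to 169 in TCF12 samples. Ets1 alone went from 16.4 ± 2.39 CPM in parental to 87.8 ± 13.7 in TCF3 samples. That exceeded the whole difference in the mean sum, 82.7 in parental against 135 in TCF3 samples, so the other markers together were lower there. Ets1 measured 57.4 ± 5.61 in TCF4 and 75.9 ± 16.2 in TCF12 samples, most of the difference in the mean sum. It is also among the 3 genes most like Zeb1 in pattern. The defining crest gene Sox10 was near 1 CPM in every group, 0.959 ± 0.243 in parental and 1.32 ± 0.175 in TCF3 samples. Pax7 was at 0 in both monomer groups. The primitive endoderm sum was high in both monomer groups, where Zeb2 was low, and in TCF3 samples, where Zeb2 was highest. The part of these markers in the Zeb2 differences was not tested.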

How the data were processed

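RNA-seq of 21 samples was analysed from 1 table of gene counts per sample. The deposited counts are whole reads per gene symbol. FastQC, TopHat2 and HTSeq and the build mm10/GRCm38 are named in the submitters' processing notes. Tool versions, the gene annotation and the strand setting are not given in the sources used here. Each table held 48321 symbols, of which 25 had become dates in 18 tables, so rows were joined by position.

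Genes were filtered with edgeR's filterByExpr (minimum count 10, total 15), which kept 14311, all 5 members among them. Libraries were scaled by TMM factors, and all 21 samples entered 1 quasi-likelihood fit in edgeR 4.0.16 (R 4.3.3) with 7 group means and 14 residual degrees of freedom. P-values were adjusted by Benjamini-Hochberg over all genes tested, with calls at 0.05. A standard error is the log2 fold change divided by the square root of its F statistic. CPM values use the TMM-scaled library size. On counts simulated for TCF4 dimer against parental over 14030 genes, 197 of 200 changed genes were recovered, with 15 unchanged genes called. The changed genes were drawn from those above a minimum parental level, which Snai2, Snai3 and Zeb1 did not reach. The simulated spread was fixed and no library stood apart, so the recovery does not cover scarce genes or the TCF12 group. The total counts, 6648842 to 15999693, set the floors of 0.188 to 0.451 CPM.

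The members and gene lists were chosen with earlier results of these data known. Named genes were the 5 members, the 3 genes most correlated with each, and from each list up to 2 rising and 2 falling genes per comparison with at least 1 CPM. DESeq2 1.42.0 was run as an alternative, as were RLE factors, library sizes without factors, other filters, fits of only the groups compared, the uninduced monomer line as reference, a replicate block and leaving out each library. List and marker counts without TCF12 dimer sample 1 or uninduced monomer sample 1 were added after seeing the data. Samples of different groups that share a replicate number did not deviate together (mean r 0.0260 over 63 pairs, against -0.0126 over 126 pairs with different numbers).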

Additional observations from a re-analysis of the deposited data

Results flagged for a closer look

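Each result here is a difference in Snail or Zeb transcript between 2 induced lines, or between the heterodimer lines and the homodimer line, that passed edgeR's quasi-likelihood test of that difference itself. Values are log2 fold changes from 3 samples a line. Against the induced monomer line, Snai1 was higher by 3.19 in TCF3, 2.43 in TCF4 and 3.55 in TCF12 libraries, in 9 of 9 samples. Of all genes tested, 24.6, 27.3 and 18.4% had every sample higher, in the same order. Snai2 was higher by 2.98, 1.64 and 2.48 in the same order, and Zeb1 by 2.19, 0.90 and 1.72. Zeb2 was higher by 2.79, 2.03 and 2.41. Heterodimer samples exceeded homodimer samples by 3.20 for Snai1, 2.42 for Snai2, 0.97 for Zeb1 and 1.66 for Zeb2, with 1 of 9 heterodimer samples below the homodimer samples for Zeb1 and none for the other 3 genes. All 9 lay above the homodimer samples in 5.07% of all genes tested. Among the heterodimer lines, TCF3 libraries exceeded TCF4 libraries by 0.76 for Snai1, 1.33 for Snai2, 1.29 for Zeb1 and 0.76 for Zeb2. Of these, the Snai1 call was lost without TCF3 sample 1 or TCF4 sample 2 or 3, and the Zeb2 call without TCF3 sample 1. Their adjusted p-values then reached 0.14 and 0.059 in edgeR's quasi-likelihood test. TCF12 libraries exceeded TCF4 libraries by 1.12 for Snai1 and 0.82 for Zeb1. These 2 calls were lost in a fit of the 2 groups alone (adjusted p 0.60 and 0.63 by edgeR's quasi-likelihood test) and without TCF4 sample 2 or 3, and that of Zeb1 also with library size only (adjusted p 0.053). Snai2 passed the filter on low counts in all 9 heterodimer samples and in 4 of the other 12, so its values rest on few counts outside the heterodimer lines. Its calls against the monomer and homodimer lines were partly fixed by that filter. No dimer line was sampled without induction, so in these differences the induced protein and the line cannot be told apart.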

How the results depend on the processing

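Of 75 member results (5 genes in 15 comparisons), 74 kept their direction and side of the threshold under DESeq2 and under RLE factors, 72 with library size only, 73 without a low-count filter, and 75 with a filter of 1 CPM in 3 samples. With a replicate block 75 of 75 did, and the numbers of genes and members passing stayed within 1.5 times. In fits of only the groups compared 62 of 70 did, since Snai2 could not be tested in 5 of them. Against the uninduced monomer line, 18 of 20 did: Zeb2 in the homodimer line reversed from -0.44 to 1.35, Snai2 there was 0.00, and the numbers of genes passing were 3259 for the homodimer and 4620 for the TCF4 line.

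In fits of only the groups compared, with fewer samples, genes passing numbered 5032 for uninduced monomer, 5099 for induced monomer, 3114 for homodimer, 6674 for TCF3, 4009 for TCF4 and 824 for TCF12 against parental (2854, 2861, 1265, 4058, 1839 and 3866 in the fit of all samples). They numbered 682 for induction, 4813 for homodimer, 5715 for TCF3, 6346 for TCF4 and 1516 for TCF12 against induced monomer (286, 2642, 3162, 3929 and 4798). Heterodimers against homodimer gave 1310 and not 2007, TCF3 against TCF4 5661 and not 2818, TCF3 against TCF12 236 and not 2686. TCF12 against TCF4 gave 0 genes and 0 members in that fit, 901 genes with DESeq2, 306 genes and 1 member with library size only and 1443 genes without a filter, against 463 genes and 2 members. Members passing were 1 for uninduced monomer against parental with only the groups compared and 2 for homodimer against monomer, where DESeq2 and no filter gave 1 each. Library size only gave 1 for TCF3 against TCF12. The cause was not tested. It also moved the share of higher calls from 52.7 to 41.3% (uninduced monomer against parental), 57.6 to 69.6% (TCF3 against monomer) and 51.7 to 67.6% (TCF3 against TCF12).

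Leaving out 1 library at a time gave 2020 to 5312 genes and 1 to 2 members for uninduced monomer, 2192 to 5072 and 1 to 3 for induced monomer, 919 to 2948 and 1 to 2 for homodimer, 3099 to 6700 and 4 to 5 for TCF3, 1249 to 4045 and 3 to 4 for TCF4, and 2590 to 6160 and 4 to 5 for TCF12 against parental. It gave 173 to 890 genes for induction, 2002 to 4803 genes and 0 to 2 members for homodimer, 2066 to 5896 genes for TCF3 and 3070 to 6561 for TCF4 against monomer, and 1304 to 4173 for heterodimers against homodimer. Ranges were 1959 to 5827 genes and 2 to 5 members for TCF3 against TCF4, 49 to 4830 and 0 to 3 for TCF12 against TCF4, and 1455 to 4974 and 0 to 2 for TCF3 against TCF12. Without sample 1 of TCF12 the common coefficient of variation between samples was 0.0539, against 0.120 with it, and 7 of the 75 member results passed that had not. At these depths Snai2, with 5 parental counts in all, limits precision most.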
